A study of Mus musculus with 104 samples.

Results

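Hox genes encode homeodomain transcription factors, and the set described here is every mouse gene whose symbol is Hoxa, Hoxb, Hoxc or Hoxd followed by a number. RefSeq lists 39 such genes, of which 33 had at least 1 probe set naming that gene alone and were followed as members among 18193 genes measured. The 6 others had none and were not followed as members, although probe sets that Hoxb8 and Hoxd4 share with another Hox gene are described near the end. Each member is represented by 1 probe set, the one with the highest mean over all 104 arrays, so the choice used the level and not the regional pattern. The arrays came from 52 regions of the adult mouse nervous system, pituitary and pineal gland, with 2 arrays a region from separate samplings. All animals were male Balb/c mice aged 7 to 8 weeks, kept on a light-dark cycle before sampling in that cycle or in constant darkness. RNA was pooled over 6 time points taken every 4 h across 1 day, so a value is an average over the day, and the number of animals in a pool is not given in the sources used here.

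The regions compared were the spinal cord, labelled as spinal cord posterior and spinal cord anterior (2 arrays each), the medial vestibular nucleus (MVe, 2 arrays), the pontine nucleus (Pn, 2 arrays), the dorsal tegmental nucleus (Tg, 2 arrays) and the cerebellum (nucleus, vermis and lobe, 6 arrays). They were set against 41 forebrain and midbrain regions (82 arrays). Regions were punched on both sides from frozen slices with a needle, so a sample holds every cell type of the punch. The labels do not say what anterior and posterior mean in the cord, nor which spinal level was taken. Values are log2 expression from the authors' RMA summary, and a difference of 1 on this scale is 2-fold. Replicate arrays of a region correlated at 0.972 to 0.998 over all genes, and array medians lay between 7.33 and 7.46. A gene was called where its limma difference had a Benjamini-Hochberg adjusted p under 0.05 over all 18193 genes and was at least 2-fold. With 2 arrays a region, these p-values rest on the spread between the 2 samplings, pooled for each gene over all regions. A wider spread in 1 region is thus not reflected. The spread between the 41 forebrain and midbrain regions does not enter the p-values either. Levels on an array depend on the probe, so a member is compared between regions and never with another member's level.

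Mammalian Hox genes lie in 4 clusters and fall into 13 paralog groups, numbered from one end of each cluster to the other. In the embryo, genes with low numbers are switched on early and reach forward into the hindbrain, and genes with higher numbers stop at successively more caudal levels of the cord, an order known as collinearity. Retinoic acid activates the clusters, Polycomb proteins keep them silent in rostral tissue, and PBX and MEIS proteins bind DNA together with Hox proteins. Many neurons keep Hox expression into adulthood, and the neurons of the pontine nuclei are born at the caudal end of the hindbrain and migrate forward. In the mouse genome (GRCm38.p6) the HoxA cluster spans 105.5 kb of chromosome 6, HoxB 173.9 kb of chromosome 11, HoxC 115.7 kb of chromosome 15 and HoxD 96.9 kb of chromosome 2. Of the 33 members, 2 belong to group 1, 11 to groups 2 to 5, 10 to groups 6 to 9 and 10 to groups 10 to 13.

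Punch labels were checked against genes that mark the tissue. Slc6a5, the glycine transporter of inhibitory neurons of the cord and brainstem, had 11.07 and 10.92 in spinal cord posterior and 11.21 and 11.09 in spinal cord anterior, with no forebrain or midbrain region mean above 7.40. Barhl1, a homeobox gene of pontine neurons, had 8.37 and 8.60 in Pn, the highest mean of the 52 regions, close to the highest forebrain or midbrain mean of 8.41. Pax6, also checked for Pn, had 8.45 and 8.77 there, rank 7 of 52, and reached 9.50 in a forebrain or midbrain region. Of 13 pontine and cerebellar neuron genes 4 were called higher (1.65% of all genes) and 1 lower (1.67%) in Pn. Irx3 had 8.86 and 9.02 in MVe, and reached 9.83 in a forebrain or midbrain region. Slc6a5 was also high in the hindbrain punches, with 10.83 and 10.82 in MVe and 10.49 and 10.17 in Pn. Being high at all these sites, it does not tell Pn from other brainstem tissue. The share of neighbouring tissue in the Pn punch was not tested. En2, a homeobox gene of the midbrain-hindbrain border, had 10.91 and 10.28 in the cerebellar vermis, and no forebrain or midbrain region mean was above 7.84.

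Hox values formed a step along the neuraxis. Over all 52 regions, 17 of 33 members passed the limma F test with a range of at least 2-fold, against 60.3% of all genes. In the spinal cord 9 of 33 members were called higher than in the forebrain and midbrain, where 2.02% of all genes were, and 0 were called lower (0.951% of all genes). MVe had 6 members called higher (0.956% of all genes) and Pn had 5 (1.65% of all genes), with 0 lower in either (0.967% and 1.67% of all genes). Tg had 0 members called higher (0.77% of all genes) or lower (0.511%), and the cerebellum had 0 called higher (1.69%) or lower (2.06%). At an unadjusted p under 0.05 limma had 5 members higher (24.5% of all genes) and 0 lower (13.5%) in Tg, and 0 higher (26.9%) and 13 lower (37.2%) in the cerebellum. When each of the 41 forebrain and midbrain regions was compared with the rest of them, 0 members were called higher in any of these regions, although 1.59% of all gene-by-region comparisons were. At any fold, 64 of 1353 member-by-region comparisons were higher, against 15.2% of all gene-by-region comparisons. This 0 also held where any probe set of a member was allowed to count, and there 2.07% of all comparisons were called. The pituitary, pineal gland and retina had 0 members called higher as well, against 6.15%, 7.66% and 13.2% of all genes. In bulk RNA such as this, fewer cells of a type and less RNA per cell cannot be told apart.

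**Figure D1:**
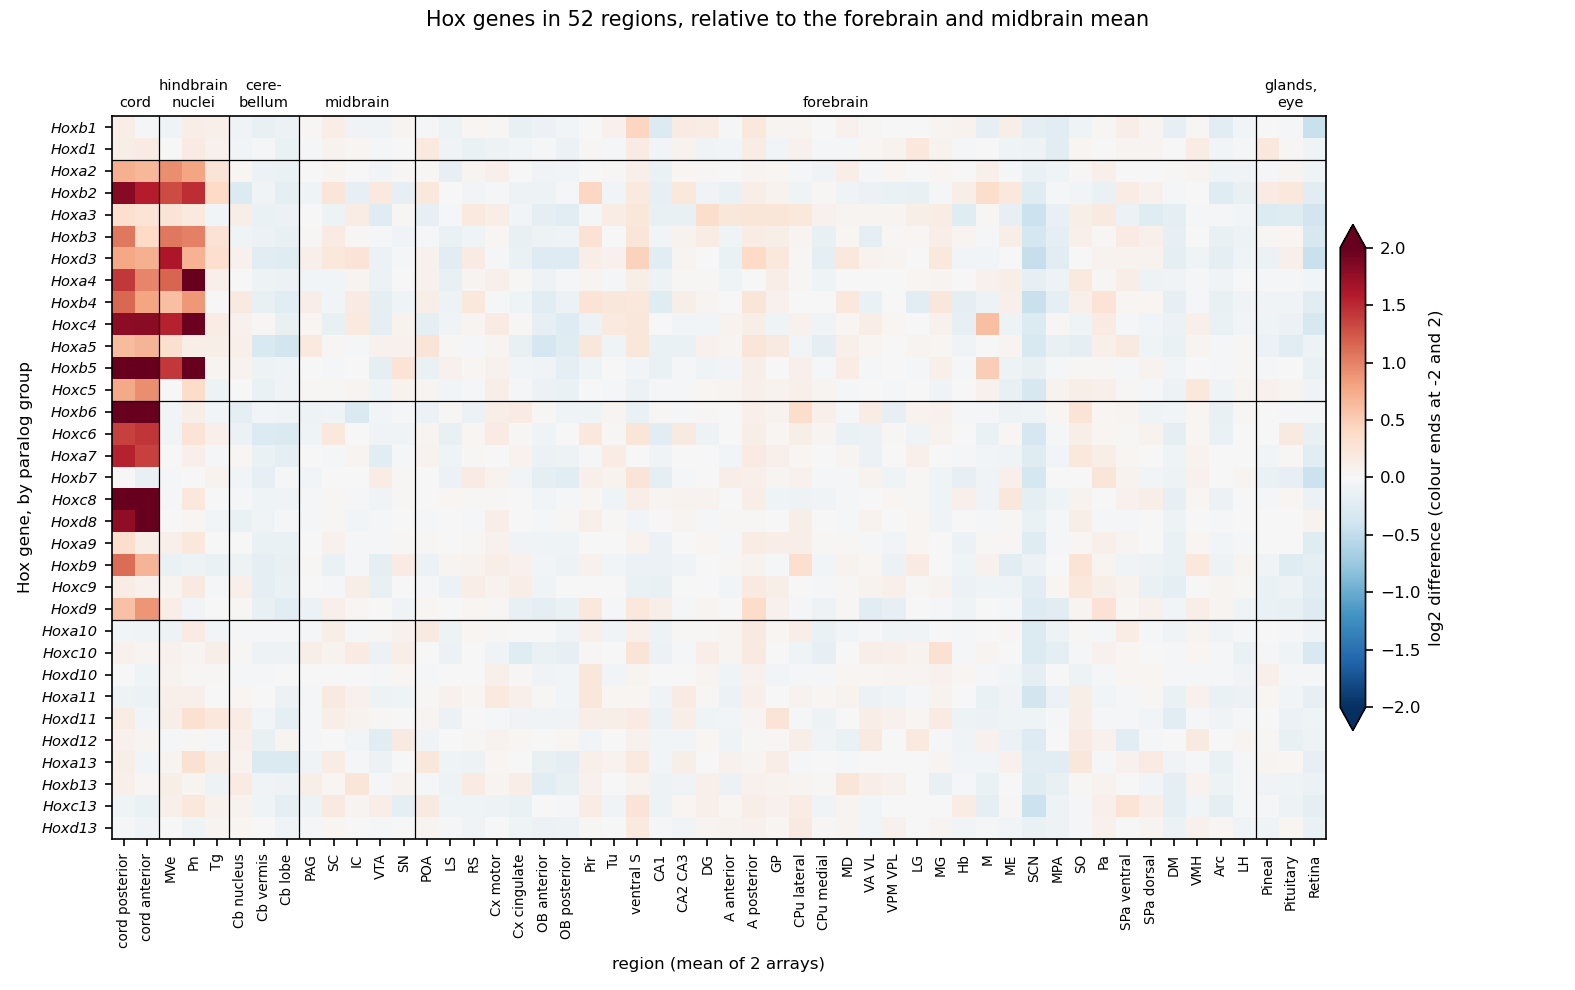
Each row is a Hox gene, ordered by paralog group, and each column is a region (mean of 2 arrays); colour gives the log2 difference from the mean of the 41 forebrain and midbrain regions and saturates at -2 and 2. Dark red cells lie in the 2 spinal cord samples for some members of groups 2 to 8 and in MVe and Pn for some members of groups 2 to 5, among pale ones such as Hoxa3, Hoxb7, Hoxa9 and Hoxc9, and groups 10 to 13 are pale throughout.

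The paralog number separated these regions. In MVe and Pn all members called higher lay in groups 2 to 5, 6 of 11 in MVe and 5 of 11 in Pn, and 0 of 10 members of groups 6 to 9 were called in either. In the spinal cord 4 of 11 members of groups 2 to 5 and 5 of 10 members of groups 6 to 9 were called higher. The median difference of groups 6 to 9 was 1.15 in the cord, -0.01 in MVe and 0.11 in Pn. The cord calls came from every cluster, 2 of 9 members of HoxA, 3 of 9 of HoxB, 3 of 7 of HoxC and 1 of 8 of HoxD. In groups 10 to 13 the 10 members differed by -0.11 to 0.07 in the cord, and the 2 members of group 1, Hoxb1 and Hoxd1, by 0.05 and 0.14. Over all 33 members the median difference was 0.66 in the cord, 0.08 in MVe and 0.18 in Pn, while over all genes it was -0.01, -0.00 and 0.05.

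**Figure D2:**
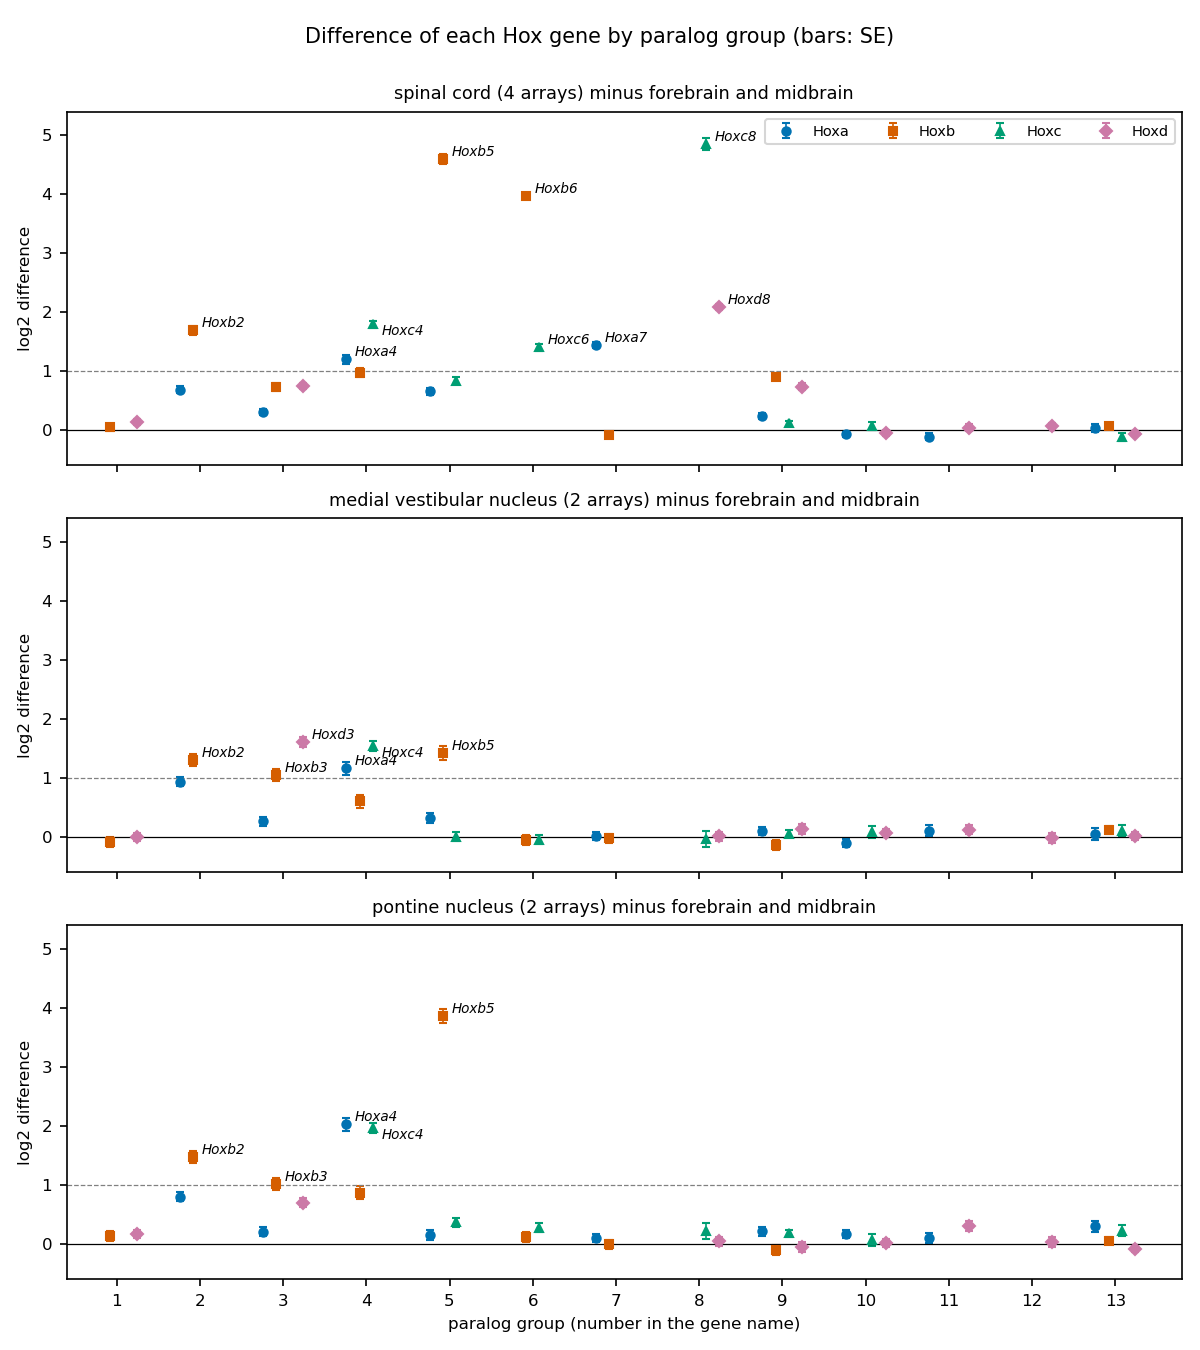
The log2 difference of each of the 33 Hox genes from the forebrain and midbrain (vertical axis; bars are SE of the limma fit) is plotted by paralog group (horizontal axis) for the spinal cord, the medial vestibular nucleus and the pontine nucleus; colours and symbols give the cluster, the dashed line marks 2-fold and called genes are named. With the probe sets shown and the 2 cord samples averaged, called genes reach group 8 in the cord and stop at group 5 in both hindbrain nuclei. From group 9, Hoxb9 was called in spinal cord posterior taken singly, and another Hoxa9 probe set was called in the cord.

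Members with the highest paralog numbers that were called in the mean of the 2 cord samples are considered first. Hoxc8, which sets motor neuron identity at forelimb levels of the embryonic cord, had 10.10 and 8.67 in spinal cord posterior and 10.42 and 9.20 in spinal cord anterior. The 82 forebrain and midbrain arrays ranged from 4.44 to 4.99 with a median of 4.76, and MVe with 4.69 and 4.73 and Pn with 5.07 and 4.85 were near them. All 4 cord arrays were thus far above every other array, although the first array of each cord sample exceeded the second by 1.43 and 1.22. The cord mean was 9.60, against 4.75 in the forebrain and midbrain, a difference of 4.85 ± 0.10 (SE) or 28.8-fold (limma adjusted p = 9.66e-47), the largest among the members. The SD of the 2 arrays was 1.01 in spinal cord posterior and 0.86 in spinal cord anterior, a spread that the SE pooled over all regions does not reflect.

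Hoxb6, a gene of the B cluster, had 9.78 and 10.12 in spinal cord posterior and 9.09 and 9.24 in spinal cord anterior. Forebrain and midbrain arrays had 5.26 to 6.07 (median 5.58), MVe had 5.47 and 5.60 and Pn had 5.57 and 5.84. The 4 cord arrays did not overlap with the rest, and the difference from the forebrain and midbrain was 3.97 ± 0.06 (15.7-fold, limma adjusted p = 4.24e-54). Hoxd8 had 7.56 and 7.75 in spinal cord posterior and 8.65 and 7.94 in spinal cord anterior, while the forebrain and midbrain arrays had 5.74 to 6.11 (median 5.88). Its difference was 2.09 ± 0.05 (limma adjusted p = 2.86e-41), and a second Hoxd8 probe set gave 2.87 ± 0.04. Hoxa7, a gene of trunk levels, and Hoxc6, active in forelimb-level motor neurons, differed by 1.45 ± 0.05 and 1.40 ± 0.06, and their 4 cord arrays also lay above all 82 forebrain and midbrain arrays.

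For these 5 genes the step lay between the hindbrain nuclei and the cord. In the spinal cord minus MVe comparison 7 members were called higher (0.989% of all genes) and 0 lower (0.335%). They were Hoxc8 (4.89 ± 0.17), Hoxb6 (4.02 ± 0.10), Hoxb5 (3.17 ± 0.15), Hoxd8 (2.08 ± 0.09), Hoxc6 (1.45 ± 0.10), Hoxa7 (1.43 ± 0.08) and Hoxb9 (1.04 ± 0.10), and 6 of these 7 belong to groups 6 to 9. Hoxb9, a gene of thoracic levels, had 7.18 and 7.58 in spinal cord posterior and 7.14 and 6.74 in spinal cord anterior, against 6.19 and 6.05 in MVe. Its call rested on the threshold: without the first array of spinal cord anterior the difference was 0.94, and without the second arrays of spinal cord posterior and of MVe it was 0.94 and 0.97. Hoxd3 ran the other way by -0.86 ± 0.10 (limma adjusted p = 3.56e-10), short of 2-fold. Markers of other cells moved with this comparison as well: 10 of 13 oligodendrocyte and myelin genes were called higher in the cord than in MVe (median difference 1.17), as were 2 of 12 meningeal and 1 of 9 microglial genes, and their part was not tested.

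Members of groups 2 to 5 were shared by cord and hindbrain nuclei. Hoxb2, Hoxa4, Hoxc4 and Hoxb5 were called higher in the spinal cord, MVe and Pn alike. Hoxb5, from the middle of the B cluster, had 10.44 and 10.72 in spinal cord posterior, 9.73 and 10.35 in spinal cord anterior, 6.71 and 7.58 in MVe and 9.16 and 10.01 in Pn. The 82 forebrain and midbrain arrays had 5.45 to 6.42 with a median of 5.71, so all 3 sites were above them without overlap. Against the forebrain and midbrain Hoxb5 differed by 4.59 ± 0.09 in the cord (24.1-fold), 3.86 ± 0.12 in Pn (14.5-fold) and 1.42 ± 0.12 in MVe (2.68-fold). In the order of region means, spinal cord posterior and spinal cord anterior did not overlap in their arrays, spinal cord anterior and Pn did and MVe came after them. The difference of 0.54 between the cord samples did not pass the adjusted p.

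Hoxc4, which acts with its neighbours at cervical levels, was near its top at all these sites. It had 8.86 and 9.04 in spinal cord posterior, 8.89 and 9.01 in spinal cord anterior, 8.50 and 8.89 in MVe and 9.10 and 9.13 in Pn, against 6.76 to 7.86 (median 7.14) in the forebrain and midbrain. Its differences were 1.80 ± 0.06 in the cord, 1.54 ± 0.08 in MVe and 1.97 ± 0.08 in Pn. Hoxa4 had its highest mean in Pn, with 6.80 and 7.32, followed by spinal cord posterior with 6.24 and 6.66. It had 5.75 and 6.29 in spinal cord anterior and 5.76 and 6.63 in MVe, and the forebrain and midbrain arrays had 4.81 to 5.30. Against the forebrain and midbrain Hoxa4 differed by 1.20 in the cord, 1.16 in MVe and 2.02 in Pn. Hoxb2, which with Hoxb1 patterns a middle segment of the embryonic hindbrain, differed by 1.69 ± 0.07 in the cord, 1.31 ± 0.10 in MVe and 1.47 ± 0.10 in Pn.

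**Figure D3:**
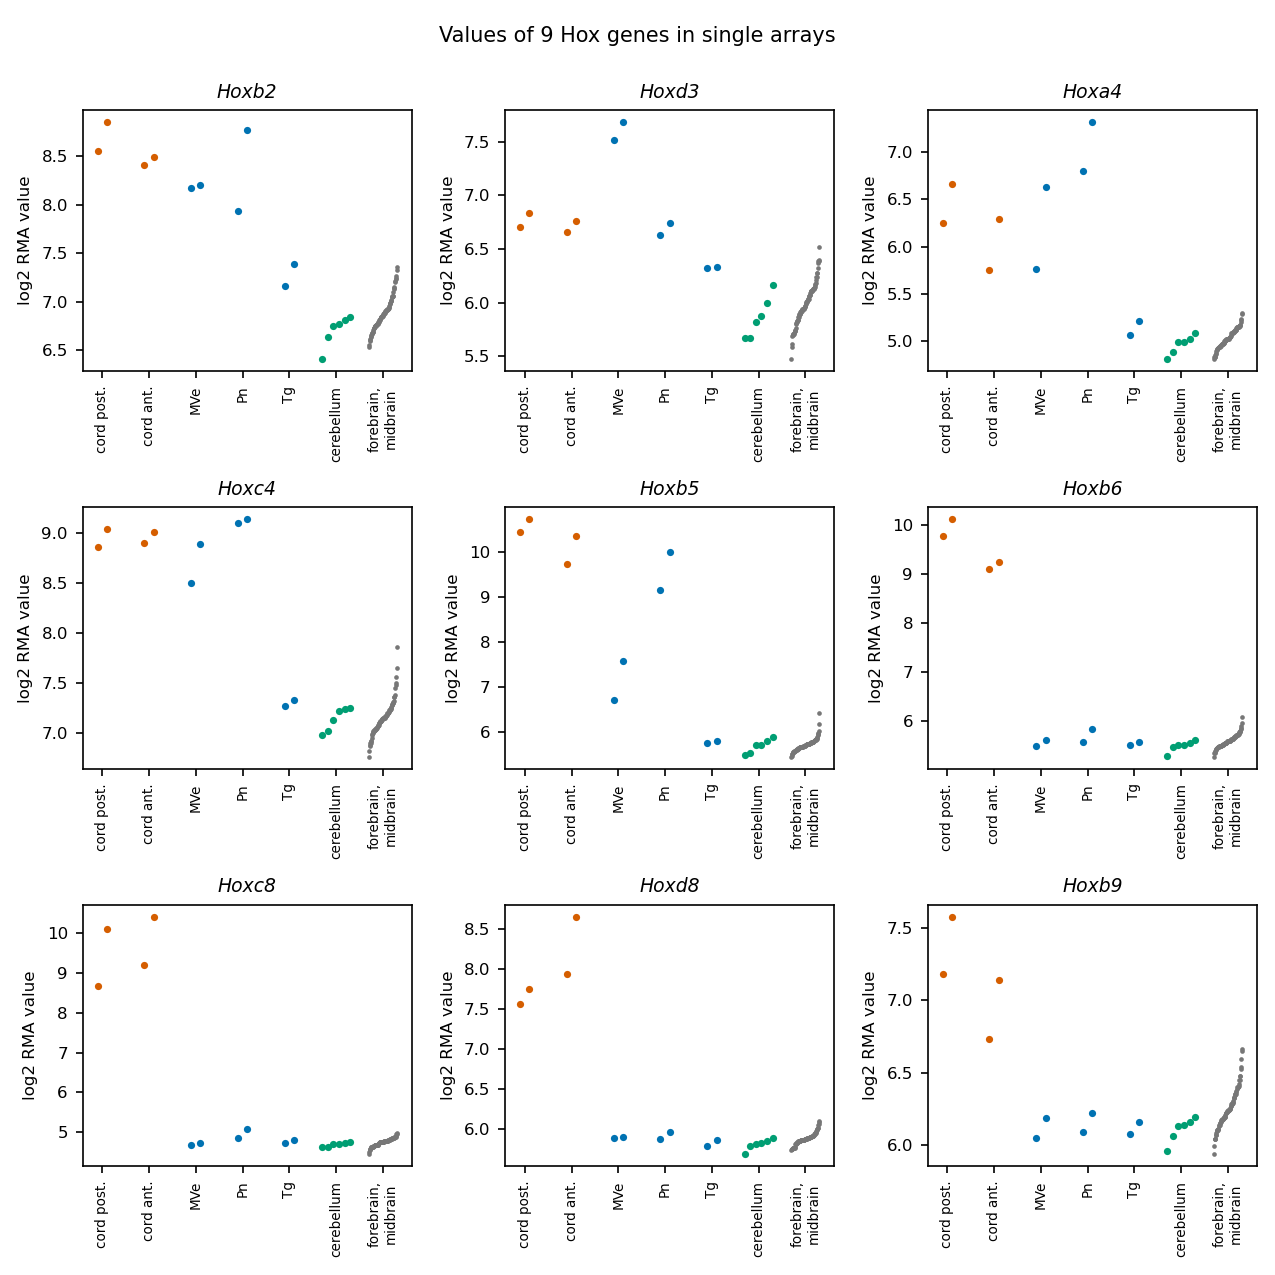
Each point is 1 array; the vertical axis of each panel is the log2 RMA value of the named Hox gene on its own scale, and the horizontal axis gives spinal cord posterior and anterior (orange), MVe, Pn and Tg (blue), the cerebellum (green) and the 41 forebrain and midbrain regions (grey). Hoxb6, Hoxc8, Hoxd8 and Hoxb9 are raised in the cord samples alone, and Hoxb2, Hoxa4, Hoxc4 and Hoxb5 also in MVe and Pn.

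Hoxd3 and Hoxb3, paralogs that mark caudal hindbrain segments in the embryo, were called in hindbrain nuclei and missed 2-fold in the mean of the 2 cord samples. Hoxd3 had 7.68 and 7.52 in MVe, its highest region, and 6.63 and 6.74 in Pn. It had 6.71 and 6.83 in spinal cord posterior and 6.76 and 6.65 in spinal cord anterior, against 5.47 to 6.52 (median 5.98) in the forebrain and midbrain. The difference was 1.61 ± 0.08 in MVe (limma adjusted p = 8.98e-25), 0.70 ± 0.08 in Pn and 0.75 ± 0.06 in the cord. Hoxb3 differed by 1.05 ± 0.10 in MVe and 1.01 ± 0.10 in Pn, and by 0.73 ± 0.07 in the cord. Without the first MVe array the Hoxb3 difference there was 0.87, and without the second Pn array it was 0.88 in Pn. Without the second MVe array, Hoxa4 and Hoxb5 differed by 0.73 and 0.98 in MVe.

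Several members of groups 2 to 5 stood just under the threshold. In the cord these were Hoxb4 (0.97 ± 0.08), Hoxc5 (0.84 ± 0.06) and Hoxa2 (0.69 ± 0.05), with Hoxb9 (0.90 ± 0.06) and Hoxd9 (0.73 ± 0.06) from group 9. Hoxa2, the gene that patterns the most rostral Hox-expressing segment of the hindbrain, differed by 0.93 ± 0.08 in MVe and 0.79 ± 0.08 in Pn. At any fold, 21 members were higher in the cord (23% of all genes), 10 in MVe (17%) and 16 in Pn (23.6%), with 0 lower in the cord (21.9% of all genes), MVe (15.9%) or Pn (16.1%). All 4 cord arrays lay above all 82 forebrain and midbrain arrays for 15 members, against 0.907% of all genes. Both arrays did so for 7 members in MVe (1.62% of all genes) and for 9 in Pn (1.4%). No member did so in Tg (0.368% of all genes), and in none did all 6 cerebellar arrays (0.198%).

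Arrays of 1 region did not always match for these genes. The second MVe array exceeded the first by 0.88 for Hoxb5, 0.87 for Hoxa4, 0.51 for Hoxb4 and 0.50 for Hoxa2. In Pn the second array exceeded the first by 0.85 for Hoxb5, 0.83 for Hoxb2, 0.65 for Hoxb4 and 0.52 for Hoxa4. The median SD between the 2 arrays of a region was 0.070 over members and regions.

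Pn lies further forward than MVe, yet its Hoxb5 value was the higher. In MVe minus Pn, 1 member was called lower (0.907% of all genes) and 0 were called higher (0.797%). Hoxb5 differed by -2.44 ± 0.17 (limma adjusted p = 4.55e-18), with 6.71 and 7.58 in MVe against 9.16 and 10.01 in Pn. Hoxa4 (-0.86 ± 0.15) and Hoxc4 (-0.42 ± 0.12) were among 6 members lower at any fold (11.2% of all genes), and Hoxd3 was the 1 member higher (0.91 ± 0.11, 8.29% of all genes). Meningeal and fibroblast markers moved with this comparison: 7 of 12 were lower in MVe than in Pn, with a mean level of 7.12 in MVe and 8.31 in Pn. Their part in the result was not tested. Spiked-in hybridisation controls were in the higher of their 2 ranges for MVe and in the lower for Pn, so control range and region cannot be told apart in this comparison.

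The cerebellum and Tg, parts of the hindbrain or its border, differed little from the forebrain and midbrain. The cerebellum derives from the most rostral hindbrain segment, which lacks Hox expression in the embryo. At any fold 0 members were higher there (25.9% of all genes) and 8 were lower (33.9% of all genes), by 0.23 at most on the log2 scale, in Hoxc6 with -0.23 ± 0.05. In Tg, 5 members were higher at any fold (19.2% of all genes), namely Hoxb2 (0.39 ± 0.10), Hoxd3 (0.34 ± 0.08), Hoxb3 (0.28 ± 0.10), Hoxa2 (0.26 ± 0.08) and Hoxd11 (0.21 ± 0.08). Hoxb2 had 7.16 and 7.39 in Tg, against 6.53 to 7.36 in the forebrain and midbrain, so its arrays overlapped with those. The largest excess of any member in a forebrain or midbrain region was that of Hoxc4 in the mammillary body, 0.61 above the other regions.

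Set singly against the forebrain and midbrain, spinal cord posterior had 12 members called higher (1.49% of all genes) and spinal cord anterior 8 (2.71%). In spinal cord posterior minus spinal cord anterior, 0 members were called higher (0.247% of all genes) or lower (0.0934%). At an unadjusted p under 0.05 limma had 6 higher (6.83% of all genes) and 3 lower (7.21%), and 3 higher (1.34% of all genes) and 1 lower (1.06%) passed the adjusted p at under 2-fold. Hoxb6 had 9.78 and 10.12 in posterior, against 9.09 and 9.24 in anterior, a difference of 0.78 ± 0.11 (limma adjusted p = 2.63e-06). Hoxb3 differed by 0.65 ± 0.14 and Hoxb9 by 0.44 ± 0.12 in the same direction, and Hoxd8 by -0.63 ± 0.10. Of 13 spinal cord and brainstem neuron genes 2 were called lower in posterior than in anterior and 0 higher, with a list median of 0.01. Slc18a3, the vesicular acetylcholine transporter, had 7.88 and 7.45 in posterior, against 9.66 and 9.60 in anterior, and Slc5a7, the choline transporter, differed by -1.63. Chat, which makes acetylcholine in the same neurons, differed by 0.05 and was not called. Their part in the Hox differences was not tested.

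More than 1 probe set was available for 11 members, and for some the probe set with the highest mean was nearly flat while another one was not. A second Hoxa5 probe set, for a gene required by the phrenic motor neurons of the cervical cord, had 8.94 and 9.25 in spinal cord posterior and 8.63 and 8.86 in spinal cord anterior. It had 5.74 and 6.63 in MVe and 6.78 and 7.33 in Pn, against 4.93 to 5.33 in the forebrain and midbrain. Its difference in the cord was 3.80 ± 0.07 (limma adjusted p = 7.41e-49), and that of the Hoxa5 probe set used above was 0.66 ± 0.06. A second Hoxa9 probe set had 8.30 and 8.19 in spinal cord posterior and 7.54 and 6.58 in spinal cord anterior, against 4.99 to 5.56 in the forebrain and midbrain. MVe, with 5.08 and 5.02, and Pn, with 5.20 and 5.30, stayed in that range for Hoxa9. Among single-gene probe sets it gave the 1 call between the cord samples, 1.19 ± 0.14 for posterior minus anterior (limma adjusted p = 5.79e-09). The anterior arrays, 7.54 and 6.58, stood apart for this probe set, so the 2-fold size rested on the second one. The pooled SE does not reflect that spread.

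Other probe sets widened the shared group as well. A second Hoxb3 probe set had 8.22 and 9.01 in MVe and 7.50 and 7.97 in Pn, against 5.71 to 6.40 in the forebrain and midbrain, and it differed by 2.71 ± 0.09 in MVe and 1.73 ± 0.06 in the cord. Another Hoxc5 probe set differed by 2.36 ± 0.05 in the cord and 1.67 ± 0.07 in Pn, and by 0.51 ± 0.07 in MVe. A Hoxa3 probe set differed by 1.22 ± 0.06 in the cord. If a member counts as called wherever any of its probe sets is, a rule added after the data were seen, 14 members were higher in the cord (2.65% of all genes), 7 in MVe (1.48%), 7 in Pn (2.07%) and 10 in the cord against MVe (1.31%). By that rule 0 members were higher in Tg (1.09% of all genes) or the cerebellum (2.29%), and the Hoxa9 call was the 1 between the cord samples (0.319%). In MVe minus Pn, 2 members were then lower (1.16% of all genes), Hoxb5 and Hoxc5, and 0 were higher (1.32%). Lower probe sets of Hoxa4 and Hoxc6 were in turn nearly flat, with 0.17 and 0.41 in the cord. Which probe set follows the transcript of a gene better was not tested.

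**Figure D4:**
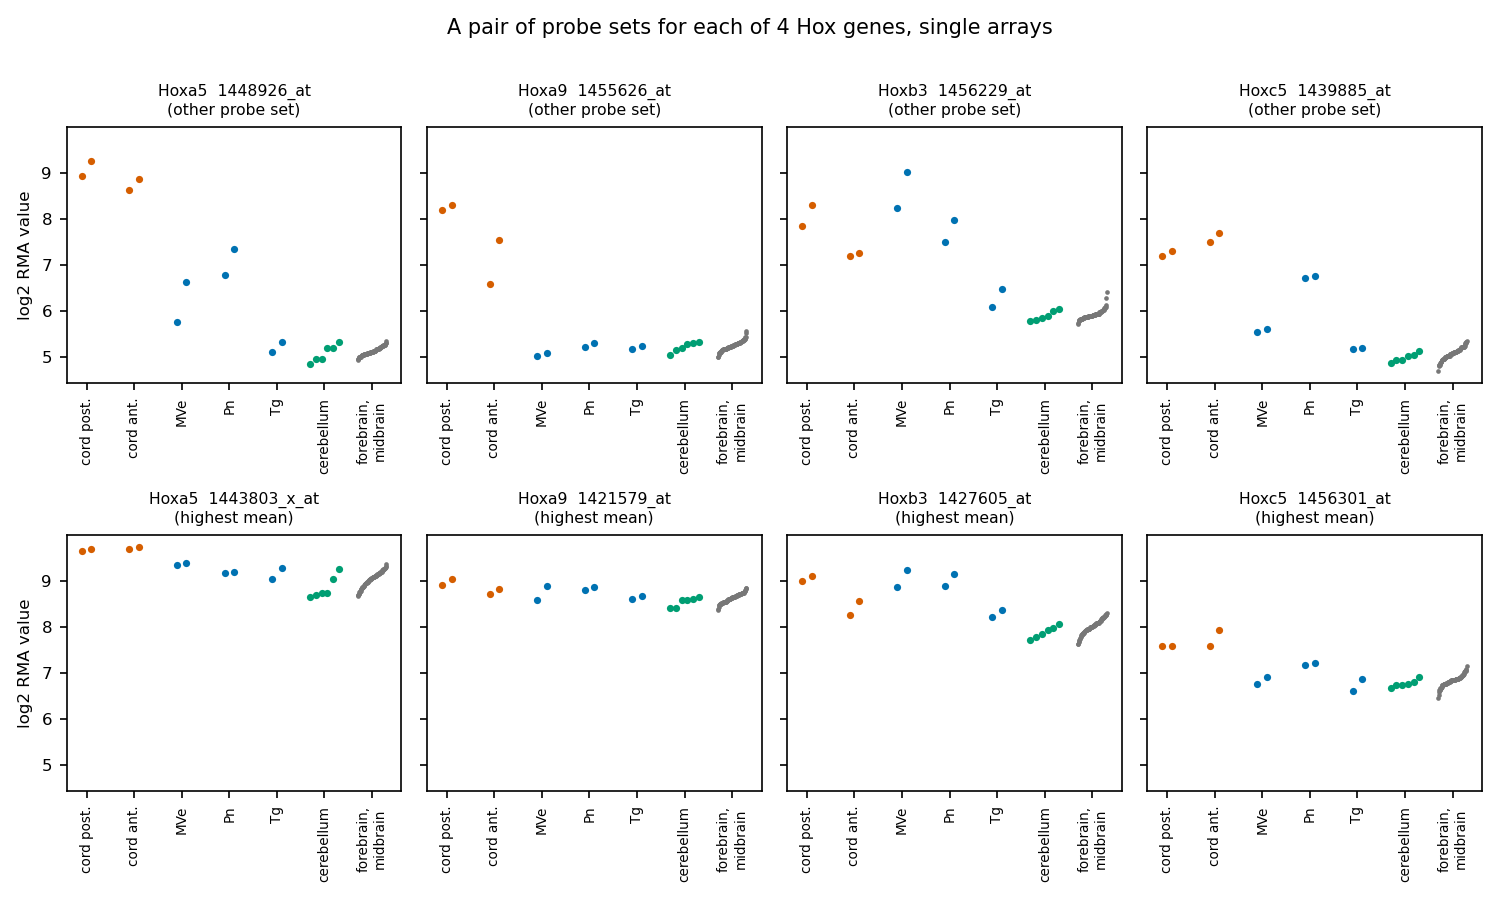
Each column is 1 Hox gene with another probe set in the upper panel and the probe set of the highest mean in the lower; points are single arrays, the vertical axis is the log2 RMA value and the horizontal axis gives spinal cord posterior and anterior (orange), MVe, Pn and Tg (blue), cerebellum (green) and the 41 forebrain and midbrain regions (grey). For Hoxa5 and Hoxa9 the upper panels rise to above 8 in spinal cord posterior, while the cord differences in the lower panels are 0.66 and 0.24.

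Sequence before a transcript start was available from RefSeq (GRCm38.p6) for 3 of the 9 members called higher in the cord, and these are shown with Hoxd3, highest in MVe, and with Hoxd10, a neighbour in the HoxD cluster that differed by -0.05 ± 0.05 in the cord. Each line gives the 250 bases before that transcript start, 5′ to 3′ on the gene's own strand. For Hoxa7, Hoxd8 and Hoxd3 it is also the annotated start of the gene, while for Hoxc4 and Hoxd10 it is an internal start, 16.3 kb and 7.6 kb into the annotated gene. Capitals mark matches, on either strand, to 4 motifs. The joint site of PBX and HOX proteins was searched as TGATNNAT. The site of CDX proteins, which are related to Hox proteins, was searched as TTTATNA. The core promoter element called the TATA box was searched by its usual letters TATAAA. The CCAAT box was searched by the letters of its name, and no motif was barred from overlapping another.
Hoxc4, plus strand, chr15:103034145-103034394: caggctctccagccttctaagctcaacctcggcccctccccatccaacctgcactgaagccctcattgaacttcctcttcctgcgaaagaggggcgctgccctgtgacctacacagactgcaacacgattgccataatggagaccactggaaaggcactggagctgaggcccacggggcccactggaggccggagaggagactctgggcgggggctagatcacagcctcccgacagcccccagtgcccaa
Hoxa7, minus strand, chr6:52218574-52218823: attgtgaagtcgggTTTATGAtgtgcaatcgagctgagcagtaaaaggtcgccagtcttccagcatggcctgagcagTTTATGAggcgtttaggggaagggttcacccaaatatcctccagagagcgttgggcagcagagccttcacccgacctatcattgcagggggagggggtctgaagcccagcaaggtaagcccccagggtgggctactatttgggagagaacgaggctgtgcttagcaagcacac
Hoxd8, plus strand, chr2:74704365-74704614: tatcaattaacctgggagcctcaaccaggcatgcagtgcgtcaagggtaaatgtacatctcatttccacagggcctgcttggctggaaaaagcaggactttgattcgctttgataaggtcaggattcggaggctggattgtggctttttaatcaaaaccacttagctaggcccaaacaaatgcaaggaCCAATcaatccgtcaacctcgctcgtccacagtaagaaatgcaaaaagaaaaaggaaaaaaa
Hoxd3, plus strand, chr2:74711743-74711992: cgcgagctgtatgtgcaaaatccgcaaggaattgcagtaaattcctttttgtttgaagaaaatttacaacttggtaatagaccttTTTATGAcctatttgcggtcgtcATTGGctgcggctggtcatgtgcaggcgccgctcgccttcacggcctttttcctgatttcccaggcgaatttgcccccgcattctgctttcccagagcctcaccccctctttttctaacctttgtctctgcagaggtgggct
Hoxd10, plus strand, chr2:74691641-74691890: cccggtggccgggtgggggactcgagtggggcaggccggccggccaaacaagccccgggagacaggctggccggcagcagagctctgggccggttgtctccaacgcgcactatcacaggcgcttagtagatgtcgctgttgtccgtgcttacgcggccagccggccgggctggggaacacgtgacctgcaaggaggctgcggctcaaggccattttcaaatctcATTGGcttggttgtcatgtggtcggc

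Hoxa7 held the CDX letters at 2 places and Hoxd3 at 1, with a CCAAT box in Hoxd3, Hoxd8 and Hoxd10 and no match in Hoxc4. The CDX letters occurred in 12.8% of 32851 mouse promoters of this length and in 6 of 24 promoters of Hox genes. The CCAAT box occurred in 33.8% and in 14 of 24, the PBX and HOX letters in 7.7% and in 4 of 24, and the TATA box in 12.4% and in 4 of 24. The Hoxd10 window held 20 CpG dinucleotides, Hoxd3 had 12, Hoxc4 had 8, Hoxa7 had 7 and Hoxd8 had 6, and the median of all promoters was 6. A match is a string of letters and was not tested as a binding site, and Hoxa4, Hoxb2, Hoxb5, Hoxb6, Hoxc6 and Hoxc8 are named here without sequence.

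Genes in and beside the clusters were examined next. Of the non-coding RNAs of the clusters 3 were measured and 1 was called higher in the cord: Hoxd3os1, which overlaps Hoxd3, differed by 2.07 ± 0.06 (7.19 in the cord, 5.12 in the forebrain and midbrain). Of 24 measured genes beside the clusters 2 were called higher and 0 lower in the cord. They were Skap1 (1.61 ± 0.06), an adaptor protein of T cells that lies 96.3 kb outside the HoxB cluster, and Nfe2l3 (1.15 ± 0.08), a transcription factor 696.6 kb from HoxA. The same comparison called 2.02% of all genes higher.

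Hoxd3os1 and Skap1 also led the genes whose regional profile was most like that of the 9 members called higher in the cord, averaged after centring each. Pearson's r across the 52 region means was 0.927 for Hoxd3os1, 0.883 for Gm38462, a gene overlapping Hoxd8 and Hoxd3, and 0.874 for Skap1. Prrxl1, a homeobox gene of dorsal horn neurons, followed with 0.844, then the peptide genes Nmu (0.801) and Uts2 (0.789), Slc6a5 (0.781), Serpinb1b (0.775), the glycine receptor gene Glra1 (0.75) and E330020D12Rik (0.747). These profiles come from the same 104 arrays, and the correlations describe them without a test. Among the 9 members themselves, r over 36 pairs ranged from 0.545 to 0.985 with a median of 0.833. These 9 were chosen for being higher in the cord, so a shared rise there is built into these values. For Hoxd3 and Hoxb3 the most similar gene was Pax8, a paired-box gene of hindbrain and cord interneurons, with 0.866 and 0.835.

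Genes that act on or with Hox genes and proteins were called at few places. None of the 9 measured genes of the cofactor list (Pbx2, Pbx3, Pbx4, Meis1, Meis2, Meis3, Pknox1, Pknox2 and Hmbox1, a homeobox gene of another class) was called in the cord (4 higher and 3 lower at an unadjusted limma p under 0.05), where they had 8.52 to 8.53 on average, against 7.83 to 9.55 over forebrain and midbrain regions. In MVe 1 of 9 was higher, Meis2 (1.83 ± 0.14). In Tg 1 was higher, Pbx3 (1.49 ± 0.10), and in the cerebellum Meis1 was higher (1.37 ± 0.05) and Meis2 lower (-1.15 ± 0.08). None of 27 Polycomb and trithorax genes was called in the cord, MVe or Pn. At an unadjusted limma p under 0.05, 3 were higher and 13 lower in the cord. In MVe 1 was higher and 12 lower at that p, and in Pn 4 were higher and 12 lower. The list median was -0.12 in the cord, -0.15 in MVe and -0.12 in Pn. The mean level was 9.03 in MVe, against 9.05 to 9.51 over forebrain and midbrain regions. None of 9 genes of the ParaHox and Cdx list was called in the cord, MVe or Pn either. The list also holds Mnx1, Meox1 and Meox2, homeobox genes of neither group. At an unadjusted limma p under 0.05, 2 were higher and 2 lower in the cord, and 4 were higher and 0 lower in Pn. Of 16 genes of retinoic acid synthesis, clearance and reception 1 was higher in the cord, Aldh1a1, an enzyme that makes retinoic acid (2.59 ± 0.10), and it was also higher in MVe (2.20 ± 0.15) and Pn (2.96 ± 0.15), and in Tg (1.86 ± 0.15) and the cerebellum (2.25 ± 0.09), where 0 members were called. Aldh1a2, another such enzyme, was the other gene of the list called in Pn (1.13 ± 0.15). Of 18 rostral homeobox genes 4 were lower in the cord (Lhx2, Dlx1, Six3 and Dlx2, by -2.73 to -1.02), and 0 were higher.

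Markers of other cells moved with the cord, MVe and Pn. Of 13 spinal cord and brainstem neuron genes 5 were higher and 0 lower in the cord, with 3 higher and 1 lower in MVe and the same numbers in Pn. Of 13 oligodendrocyte and myelin genes 11 were higher in the cord, 2 in MVe and 9 in Pn, with mean levels of 11.71 and 11.87 in the cord samples, 10.61 in MVe and 11.22 in Pn, against 7.80 to 11.68 in forebrain and midbrain regions. Of 12 meningeal genes 3 were higher and 0 lower in Pn, with a median difference of 0.88. Of 10 astrocyte genes 3 were higher and 1 lower in the cord. Of 7 Schwann cell genes 1 was higher in the cord, Pmp22, and 0 of 12 meningeal, 0 of 10 skeletal muscle, 0 of 6 cartilage and bone and 0 of 5 dorsal root ganglion genes were called there. At an unadjusted limma p under 0.05 these last lists had 3, 6, 1 and 0 genes higher and 3, 1, 1 and 0 lower. The part of other cell types in the Hox values was not tested.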

How the data were processed

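Expression was measured on 104 one-colour arrays, 2 for each of 52 regions. The deposited values are log2 expression made by the authors with RMA, per the submitters' processing notes, whose version is not given in the sources used here. RMA sets all arrays to 1 distribution, which can mask a shift common to all genes. Precision is set by having 2 arrays a region. Of 45101 probe sets, 34945 named 1 gene, 932 several, 9160 none and 64 were controls. Each of 18193 genes was represented by its single-gene probe set of highest mean. Deposited columns were taken as given, and no filter on low values was set.

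Region means were fitted with limma 3.58.1 in R 4.3.3 over all 52 regions, with p-values adjusted by Benjamini-Hochberg over all genes. A call needed an adjusted p under 0.05 and 2-fold. Tables were built in Python 3.11.15. The fit was tested on simulated data. Full statistics were planned for the 10 members with the largest called difference in each comparison, but the SE or adjusted p is not printed for every one. Other genes came from fixed lists or from the 10 most similar regional profiles. The members and lists were chosen with earlier results of these data known. Taken over all genes, same-numbered arrays did not deviate together across regions in the median (correlation -0.0004, from -0.50 to 0.52 over 1326 pairs), so numbers were not treated as pairs. Single members could still do so. Hoxb5 and Hoxa4 were higher in the second array in MVe, Pn and both cord samples, while Hoxb2 did not keep 1 direction. A median over all genes and regions cannot show that the arrays were independent for such members. Alternatives covered normalization, filters, probe sets, fold, variance model, reference regions and single arrays left out.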

Additional observations from a re-analysis of the deposited data

Results flagged for a closer look

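Probe sets that name more than 1 gene were outside the comparisons and held signal above every forebrain and midbrain array. The probe set shared by Hoxb8 and Hoxb7 averaged 10.53 in spinal cord posterior (9.06 and 12.01) and 8.70 in spinal cord anterior (8.46 and 8.94). The 82 forebrain and midbrain arrays had 5.57 to 6.29. The 2 posterior arrays stood far apart for it. The limma difference between the cord and the forebrain and midbrain was 3.63 ± 0.15, and that of posterior minus anterior was 1.83 ± 0.29 (adjusted p = 2.23e-05). The posterior minus anterior difference rested mostly on the second posterior array, since the first was close to the anterior ones, and the pooled SE does not reflect this. Hoxb7 alone, on its own probe set, was not called in the cord, and the shared probe set cannot tell its 2 genes apart. A probe set shared by Hoxd4 and Hoxd3 averaged 8.09 in MVe (8.10 and 8.08), against 6.43 to 7.07 in the forebrain and midbrain. Another one of the same pair averaged 6.81 in spinal cord posterior (6.54 and 7.08), against 5.68 to 6.28 in the forebrain and midbrain.

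Effects against the forebrain and midbrain differed between sites by direct test. In spinal cord minus MVe, limma called Hoxc8 (4.89), Hoxb6 (4.02), Hoxb5 (3.17), Hoxd8 (2.08), Hoxc6 (1.45), Hoxa7 (1.43) and Hoxb9 (1.04). In MVe minus Pn it called Hoxb5 (-2.44).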

How the results depend on the processing

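Of the counts of members called, 145 values under alternatives stayed within 1.5 times the main count and 12 did not. At any fold the counts were 21 higher in the cord (23% of all genes), 10 in MVe (17%), 16 in Pn (23.6%) and 5 in Tg (19.2%). In the cord against MVe 11 were higher at any fold (7.84% of all genes) and 1 lower (5.19%). In MVe against Pn 1 was higher (8.29%) and 6 were lower (11.2%). In spinal cord posterior against anterior 3 were higher (1.34%) and 1 lower (1.06%). Summed over forebrain and midbrain regions 64 were higher (15.2% of all gene-by-region comparisons). Over all regions the count at any fold was 30. No share of all genes is given here for it, so it cannot show how members compare with other genes. With any probe set of a gene, a rule added after the data were seen, 14 members were called in the cord and 1 between the cord samples, and the probe set of the lowest mean also gave 1 between the cord samples. Leaving out 1 array gave 9 to 10 members in the cord, 4 to 6 in MVe, 4 to 6 in Pn and 6 to 7 in the cord against MVe. With the replicate block the counts were 9 in the cord, 6 in MVe, 5 in Pn and 7 in the cord against MVe, and the block changed no other call. Of the single-gene values, 416 kept their call, 16 fell short of 2-fold or of the adjusted p and 0 reversed. Hoxa4 differed by 0.68 in the cord and 0.64 in MVe with the mean of its probe sets, and by 0.17, 0.12 and 0.48 in the cord, MVe and Pn with its dimmest one. Hoxc6 differed by 0.41 in the cord with its dimmest probe set. Hoxb3 differed by 0.97 in Pn against all other regions, and by 0.98 against regions with like hybridisation controls. The cause of these shifts was not tested. The files hold no detection calls, so a low value cannot be told from background.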

Other observations

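Small shifts of many members at once were present in forebrain regions, with the largest counts in 2 of them. In the suprachiasmatic nucleus 23 members were lower than in the other forebrain and midbrain regions at an adjusted limma p under 0.05 and any fold, where 30.5% of all genes were, and the median difference was -0.25 over members and -0.05 over all genes. In the ventral subiculum 12 members were higher (16.7% of all genes), with a median difference of 0.16 over members and -0.01 over all genes. Other regions had shifted medians too. The member median was 0.12 in the posterior amygdaloid complex and -0.12 in the dorsomedial hypothalamic nucleus, against 0.01 and -0.05 over all genes. None of these shifts reached 2-fold. In the retina 14 members were lower (37.4% of all genes).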
